A study of Mus musculus with 6 samples.

Results

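The genes followed here make, load or restrain microRNAs, and were measured in R1 mouse embryonic stem cells. They are Drosha, Dgcr8, Xpo5, Dicer1, Tarbp2, Ago1, Ago2, Ago3, Trim71 and Lin28a. The 10 were taken as the probe sets whose platform annotation names exactly 1 gene, that gene among the 10, which gave 27 probe sets of the 45101 on the array. RNA came from undifferentiated R1 cells grown in medium with leukaemia inhibitory factor and measured on 6 Affymetrix mouse expression arrays. On 3 arrays the cells stably expressed a short hairpin RNA (shRNA) against Pcl2, the Polycomb-like protein encoded by Mtf2, and on 3 arrays they stably expressed an shRNA mismatch control sequence. The labels call the arrays of each group biological replicates and name a single Pcl2 shRNA clone, so the hairpin and the clone cannot be told apart. Hairpin sequences were expressed in both groups, so the comparison does not set cells with a hairpin against cells without one.

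A microRNA gene is transcribed into a long primary transcript with a hairpin, which Drosha, a ribonuclease, cuts in the nucleus together with its RNA-binding partner Dgcr8. Exportin-5, encoded by Xpo5, carries the freed hairpin to the cytoplasm, where Dicer1 with its cofactor Tarbp2 cuts it to a short duplex, and an Argonaute protein takes up 1 strand and finds target mRNAs through the seed of that strand. Short hairpins made from a vector enter the same route, at export or earlier depending on the vector. In embryonic stem cells the RNA-binding protein Lin28a blocks maturation of let-7, a microRNA family of differentiated cells, and Trim71, an RNA-binding ubiquitin ligase, is itself a let-7 target.

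The mature sequences below belong to microRNAs after which target lists used further on are named, or lie in genes named there. Those lists were not drawn up by a search for seed matches. They were taken from RefSeq (GRCm38.p6), are written 5′ to 3′, and carry the seed, bases 2 to 8, in capitals. All 8 let-7 sequences in that table share the seed of the 3 shown, and the miR-291a, miR-294 and miR-295 sequences of the miR-290 cluster share theirs with miR-302b and miR-302d.
let-7a-5p: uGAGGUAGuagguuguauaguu
let-7g-5p: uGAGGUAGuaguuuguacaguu
let-7d-5p: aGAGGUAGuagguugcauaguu
miR-291a-3p: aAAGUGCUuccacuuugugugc
miR-294-3p: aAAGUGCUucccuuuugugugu
miR-295-3p: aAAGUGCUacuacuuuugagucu
miR-302b-3p: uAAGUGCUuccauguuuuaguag
miR-302d-3p: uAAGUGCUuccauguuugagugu
miR-26b-5p: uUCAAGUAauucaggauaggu
miR-370-3p: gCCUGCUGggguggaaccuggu
miR-1306-5p: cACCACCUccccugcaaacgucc
The copy of let-7a shown lies at chr13:48538239-48538260 on the minus strand, miR-294-3p at chr7:3220691-3220712 on the plus strand, miR-302b-3p at chr3:127545275-127545297 on the plus strand and miR-1306-5p at chr16:18284288-18284310 on the minus strand. Mir1306 lies within the span of Dgcr8, one of the 10 genes.

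None of the 10 genes passed the test in Pcl2 shRNA cells against control. The test was limma's moderated test on log2(signal + 7), with 1 probe set, the brightest, for each gene and Benjamini-Hochberg adjustment over all genes tested, a call being an adjusted p below 0.05. It called 0 of the 10 genes where 12.6% of 13095 genes were called (4.46% higher and 8.16% lower), and also 0 of 10 at an unadjusted p below 0.05, where 26.1% of all genes passed. The fitted log2 differences, given throughout as Pcl2 shRNA minus control, ran from -0.47 for Ago1 to 0.08 for Ago3. They were below 0 for 8 genes and above 0 for 2, with a median of -0.18 beside 0.02 over all genes. For the brightest probe set of all 10 the 95% interval lay inside a 2-fold change in either direction. It did not for the dimmer Dicer1 probe set, fitted on its own (-1.26 to -0.17). With the replicate number as a block, Ago1 alone among the 10 was called (adjusted p = 0.0338), where 23.8% of all genes were.

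Of the 27 probe sets, 24 passed the filter on low signal and 3 did not, 1 of Dgcr8 and 2 of Ago3. Fitted each on its own, 0 of the 24 were called, against 10.4% of 23186 probe sets, and 2 had an unadjusted p below 0.05, against 24.4%. Signals are given as deposited, on a linear scale scaled within each array, and differences between probe sets of 1 gene are not differences in amount, since each probe set has its own affinity.

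**Figure D1:**
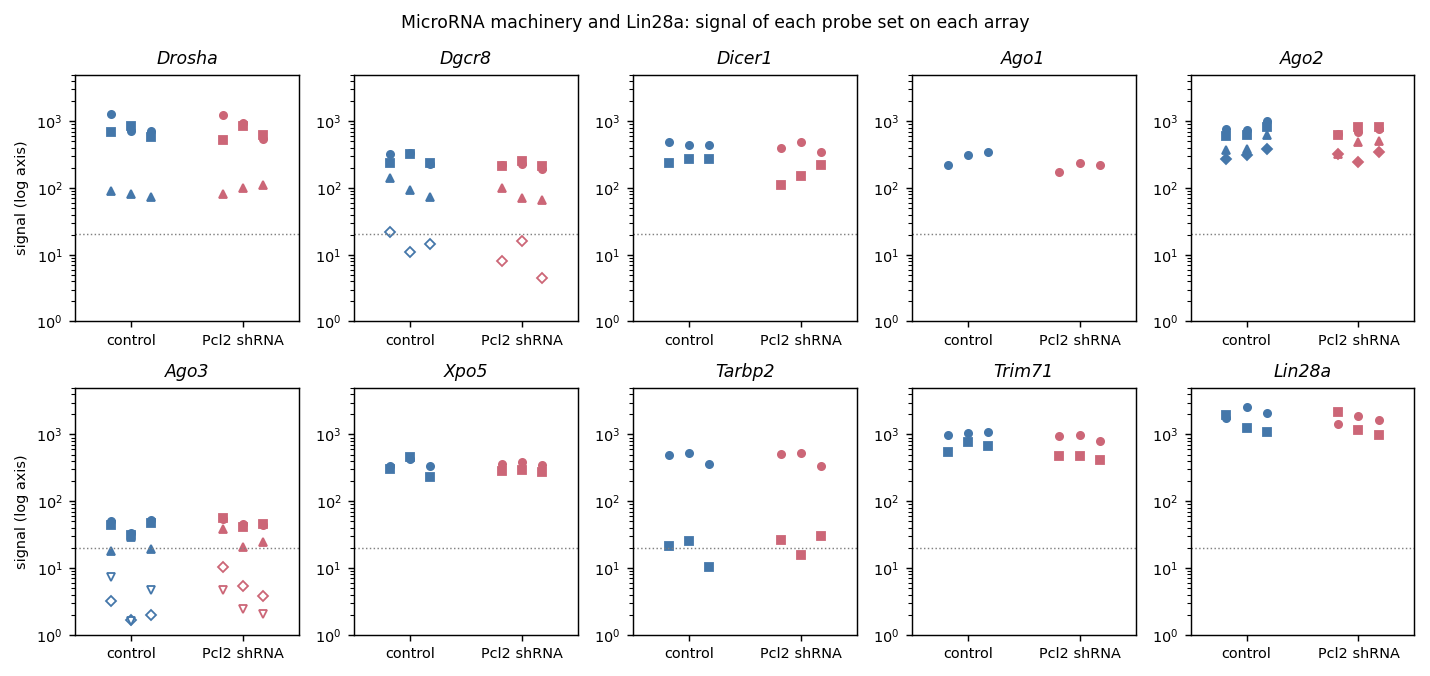
Signal (log axis) of all 27 probe sets of the 10 genes on the 3 control arrays (blue) and the 3 Pcl2 shRNA arrays (red), replicates 1 to 3 from left to right in each group; each marker shape is 1 probe set of that gene, open markers are probe sets below the signal filter and the dotted line is the background signal of 20.3. The groups overlap for all but 1 probe set each of Dicer1, Trim71 and Ago3, the last far below background.

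The targeted gene was lower. The brightest Mtf2 probe set gave 1951, 1513 and 1704 in the control and 1048, 1167 and 869.6 in the shRNA cells, with no overlap, as in the 16.7% of all genes whose shRNA arrays were all the lower. The log2 difference was -0.74 (limma adjusted p = 0.0157, with an SE of 0.17 in the fit over probe sets), and the exact two-sided permutation p was 0.1, the smallest that 3 against 3 arrays allow. Without control replicate 1, where another Mtf2 probe set was the brightest (-0.75, limma adjusted p = 0.0519), or shRNA replicate 3 (-0.63, limma adjusted p = 0.0574) this call was lost. Cell type markers were examined as lists. Of 8 embryonic stem cell markers 4 rose and 4 were not called, a share of 50% beside 12.6% of all genes. The 4 were Esrrb (log2 1.47), Zfp42 (1.32), Tdgf1 (0.89) and Sox2 (0.76), while Nanog (0.59), Dppa5a (0.44), Pou5f1 (0.36) and Utf1 (0.34) did not pass. With the replicate block 5 of the 8 rose, Nanog included, 62.5% beside 23.8% of all genes. The call of Sox2 did not hold in every fit without 1 array (largest limma adjusted p = 0.0662). The summed signal of the 8 was 20797.9 to 26732.5 in the control and 33268.8 to 44334.7 in the shRNA cells, and none lay at or below background on all 6 arrays. Of 8 fibroblast markers 2 did, Dcn and Lum, and the others did not, with control means of 136 ± 99.9 (SD, n = 3) for Col1a1 and 168 ± 60.8 for Col1a2. Their sum was 375 to 969 in the control and 272 to 589.6 in the shRNA cells. Of 5 tested fibroblast markers 0 were called by limma and 2 were lower with the replicate block, 40% beside 13.8% of all genes. Of 7 primitive endoderm markers 2 lay at or below background throughout, Afp and Ttr, while Gata4 gave 44.9 ± 2.42 in the control; the sums were 152 to 198 and 165 to 182. Of 6 measured neural markers 1, Neurog2, did so, and the sums were 469.5 to 503 and 441 to 573. None of the 3 endoderm or 4 neural markers tested was called. With the block 1 neural marker, Map2, was lower, 25% of those tested beside 13.8% of all genes. The part of these markers in the results below was not tested, and in bulk RNA fewer cells of a type and less RNA per cell cannot be told apart.

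Drosha, the nuclear ribonuclease, had the same mean level in both groups and a wide spread in each. Its brightest probe set gave 1277, 724 and 723 on control arrays 1 to 3 and 1242, 927 and 544 on shRNA arrays 1 to 3. Replicate 1 was the highest of both groups, and the lowest array of all was shRNA replicate 3. The means were 908 ± 319 and 904 ± 349 (SD, n = 3), a log2 difference of -0.03 (SE 0.31, 95% interval -0.71 to 0.65, limma adjusted p = 0.966). This was the widest interval among the 10 genes, and the sign turned without control replicate 1 (0.24) or shRNA replicate 3 (0.29). A second probe set gave 701 ± 139 and 667 ± 175, and the third, dimmer, 81.2 ± 9.34 and 97.9 ± 15.4.

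Dgcr8, which binds the primary hairpin and positions Drosha on it, was lower in mean on all of its probe sets without passing. The brightest gave 323, 329 and 226 in the control and 222, 232 and 192 in the shRNA cells, where control replicate 3 fell among the shRNA values. Its log2 difference was -0.42 (SE 0.19, 95% interval -0.85 to 0.02, limma adjusted p = 0.208). The other 2 tested probe sets gave -0.21 and -0.34, with 266 ± 47.7 against 227 ± 20.1 (SD, n = 3) for the first and 142, 94.0 and 74.0 against 101, 70.7 and 65.4 for the second. The fourth lay near background, between 4.43 and 21.6 over the 6 arrays, and was not tested. With the replicate block the adjusted p of Dgcr8 was 0.0525, just short of the threshold.

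Xpo5, the export receptor, showed almost no difference between group means. Its brightest probe set gave 341, 425 and 340.1 in the control and 367, 393 and 346 in the shRNA cells, with the shRNA values inside the control range. The log2 difference was 0.01 (SE 0.16, 95% interval -0.36 to 0.37, limma adjusted p = 0.988). The second probe set gave 329 ± 114 and 283 ± 10.3, a difference of -0.16, and its control spread came from replicate 2 at 454 beside 299 and 233.

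Dicer1, which cuts the exported hairpin, gave different readings from its 2 probe sets. The brighter one gave 487, 447 and 442 in the control and 397, 483 and 348 in the shRNA cells, so the groups overlapped. That difference was -0.17 (SE 0.17, 95% interval -0.55 to 0.20, limma adjusted p = 0.584). The dimmer one gave 238, 267 and 271 in the control and 109, 151 and 223 in the shRNA cells. Here the groups did not overlap and the shRNA arrays were all the lower, as in 15.2% of all tested probe sets, and the shRNA arrays differed 2.04-fold among themselves. Its log2 difference was -0.72 (SE 0.24, 95% interval -1.26 to -0.17), with limma adjusted p = 0.0947 among all probe sets and 0.0211 with the replicate block. The exact permutation p was 0.1.

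Tarbp2, the double-stranded RNA-binding partner of Dicer1, had nearly equal means, and its arrays ranked alike by number in both groups. It gave 488, 536 and 357 in the control and 507, 529 and 333 in the shRNA cells, with replicate 3 the lowest of both. The means were 460.3 ± 92.8 and 456 ± 107 (SD, n = 3), a log2 difference of -0.02 (SE 0.22, 95% interval -0.52 to 0.47, limma adjusted p = 0.968). The other probe set lay near background, at 10.4 to 25.4 in the control and 15.8 to 29.8 in the shRNA cells.

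The Argonaute proteins hold the guide strand, and Ago2 is the one that can cut a matched target. On 4 probe sets Ago2 gave log2 differences of -0.24, 0.15, -0.05 and -0.08, none of them called. The brightest gave 754, 736 and 1020.1 in the control and 633, 694 and 775 in the shRNA cells, with the 2 lower control arrays inside the shRNA range. Its 95% interval was -0.63 to 0.14 (SE 0.17, limma adjusted p = 0.433). The next, at 592, 618 and 829 against 627, 807 and 814, had the opposite sign. Without probe sets that can cross-hybridise, that one stood for the gene.

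Ago1 had 1 probe set and the largest difference of the 10 genes. It gave 221, 309.5 and 347 in the control and 171, 235 and 218 in the shRNA cells. Replicate 1 was the lowest of both groups, and control replicate 1 fell among the shRNA arrays. The log2 difference was -0.47 (SE 0.21, 95% interval -0.94 to 0.00, limma adjusted p = 0.195), or 72.4% of the control level. With the replicate block the difference was the same with a smaller SE (0.14, 95% interval -0.77 to -0.16, limma adjusted p = 0.0338). Of the 13095 genes, 28.3% had a larger difference in either direction. Without control replicate 1 the difference of Ago1 was -0.65, and over all fits without 1 array it ran from -0.65 to -0.33, with none called.

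Ago3, followed on chromosome 4 by Ago1 and then Ago4, was dim. Its brightest probe set gave 49.9, 33.8 and 52.0 in the control and 54.0, 45.7 and 43.8 in the shRNA cells, a log2 difference of 0.08 (SE 0.24, 95% interval -0.44 to 0.61, limma adjusted p = 0.867). Probe sets next in brightness gave 0.19 and 0.25, so all 3 that passed the filter were higher in mean in the shRNA cells, where Ago1 was lower. The remaining 2 lay below background on all 6 arrays. In 1 of these the shRNA arrays were all above the control arrays, at 3.77 to 10.5 against 1.68 to 3.23, a range in which signal carries no measure of the transcript. Ago4, which completes the family, gave 23.5 ± 7.63 and 21.0 ± 3.79 (SD, n = 3), at the edge of background.

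Lin28a, the let-7 inhibitor, was bright in both groups, and its 2 probe sets differed in how the arrays ordered. The brighter gave 1750.0, 2567 and 2086 in the control and 1459, 1867 and 1625 in the shRNA cells. In it replicate 2 was the highest and replicate 1 the lowest of both groups, and each shRNA array was below the control array of its number. The log2 difference was -0.36 (SE 0.18, 95% interval -0.75 to 0.03, limma adjusted p = 0.232), and 0.0538 was its adjusted p with the replicate block. The other gave 1978, 1269 and 1096 against 2159, 1172 and 988, now with replicate 1 the highest of both groups. Its means were 1448 ± 468 and 1439.9 ± 629, a difference of -0.05 (SE 0.30, 95% interval -0.72 to 0.63).

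Its paralogue Lin28b, which can also block let-7, lay below the signal filter and was not tested.

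Trim71 was lower in mean on both of its probe sets and separated the groups on 1. The brighter gave 988, 1061 and 1087 in the control and 949, 994 and 812 in the shRNA cells, where shRNA replicate 2 reached past the lowest control array. That difference was -0.19 (SE 0.15, 95% interval -0.52 to 0.14, limma adjusted p = 0.473), the narrowest interval of the 10. The dimmer gave 545, 763 and 667 in the control and 470.2, 479 and 409.8 in the shRNA cells, with no overlap, and a log2 difference of -0.52 (SE 0.17, 95% interval -0.91 to -0.14). Its limma adjusted p was 0.0893 among all probe sets and 0.0306 with the replicate block. Of the 24 tested probe sets these 2, of Dicer1 and Trim71, were the ones without overlap, where 29.4% of all tested probe sets had none. With the block 3 of the 24 tested probe sets were called, those 2 and that of Ago1, where 19.6% of all tested probe sets were.

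**Figure D2:**
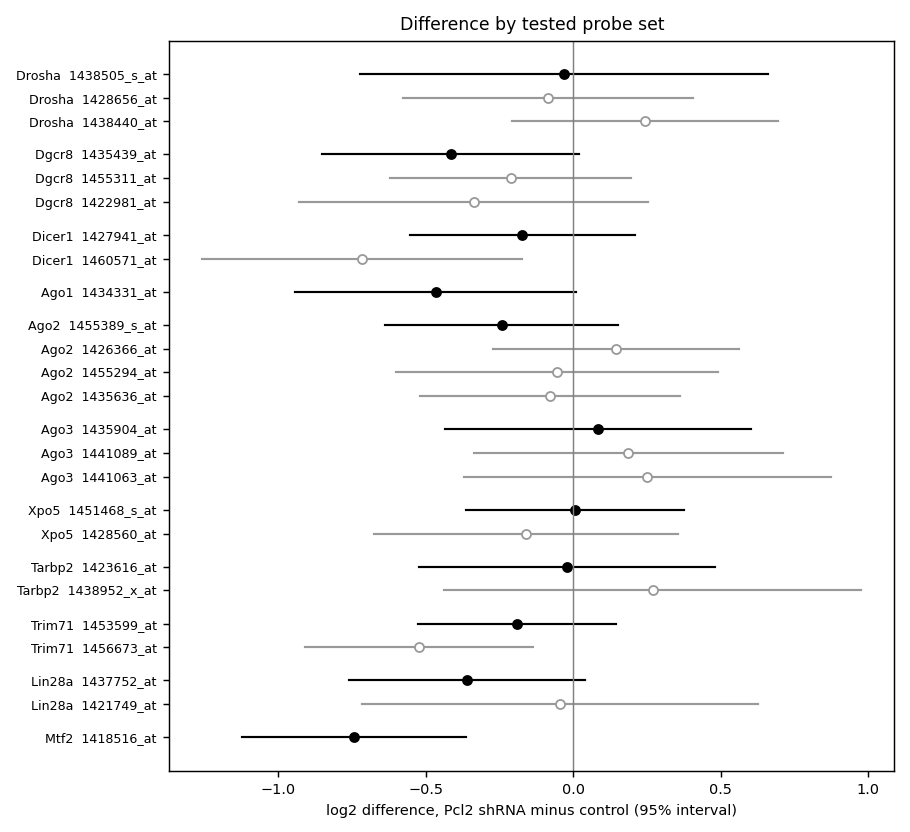
Log2 difference (Pcl2 shRNA minus control, 3 arrays each) with its 95% interval for the 24 tested probe sets of the 10 genes and, at the bottom, the brightest Mtf2 probe set, from the fit in which each probe set is a feature of its own; filled points mark the probe set that stood for the gene. Only the dimmer probe sets of Dicer1 (-0.72) and Trim71 (-0.52), and Mtf2, have intervals that leave out 0.

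Arrays of the same number often ranked alike in these genes. In 16 of the 24 tested probe sets the highest control array and the highest shRNA array carried the same number, a share of 66.7% beside 48.9% of all tested probe sets; probe sets of 1 gene share transcripts, so the 24 are not independent. Which number was highest differed by gene: replicate 1 for the brightest Drosha probe set, replicate 2 for those of Dgcr8, Xpo5, Tarbp2 and Lin28a, and replicate 3 for all 4 of Ago2. The labels do not say what a number marks.

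**Figure D3:**
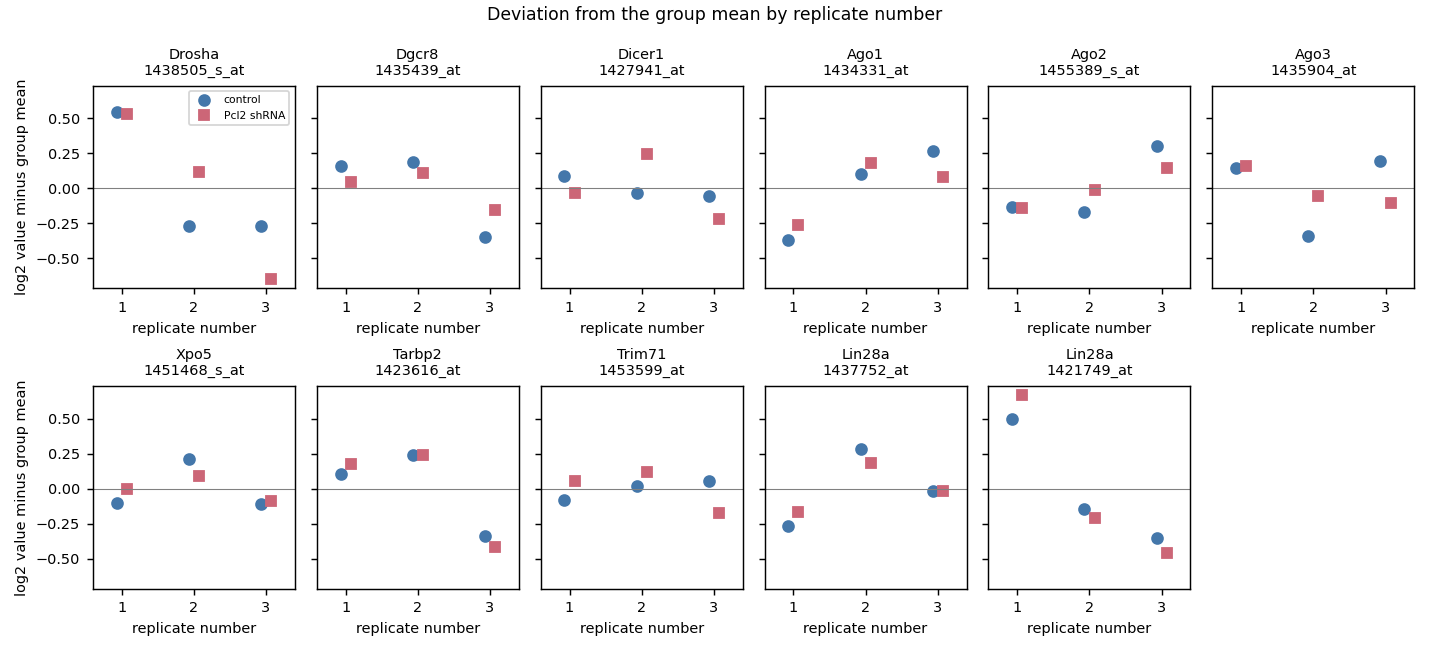
Log2 value minus its group mean against replicate number for the probe set that stood for each of the 10 genes and the second Lin28a probe set, control arrays as blue circles and Pcl2 shRNA arrays as red squares. For Drosha, Dgcr8, Xpo5, Tarbp2 and both Lin28a probe sets the 2 groups keep the same order over the numbers, while for Dicer1, Ago1, Ago2, Ago3 and Trim71 they do not.

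The promoters of 9 of the genes were in the RefSeq table, as 10 windows that run from 250 bases before to 50 bases after a start, with none for Ago2. All were rich in G and C, at 59% to 77.3% beside a median of 52.7% over 32851 windows of all genes. The count of CG pairs had a median of 37 in the 10 windows and 7 in all windows, and was lowest for Lin28a, at 10. Of the 2 windows of Ago1, 31 and 38 such pairs were counted.

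Around the 10 genes, 105 others of the pathway, its targets and its host transcripts were listed, and 89 could be tested. Of these 2 rose, 7 fell and 80 did not pass, which is 10.1% called where 12.6% of all genes were, and their median log2 difference was 0.02, as over all genes. With the replicate block 7 rose and 18 fell, 28.1% of those tested beside 23.8% of all genes. The lists were written from general knowledge and the target lists rest on no binding data from these cells.

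Cofactors of the nuclear and cytoplasmic cuts gave 0 of 9 called, by limma with or without the block, and a median of 0.21. The brightest were Ran, the GTPase that drives export (7078 ± 685 and 8177 ± 1218, log2 0.20, 95% interval -0.15 to 0.55), and the helicase Ddx5 (3351 ± 434 and 3909 ± 288, log2 0.23, 95% interval -0.11 to 0.57). Argonaute partners and silencing effectors, from the Tnrc6 scaffolds to the decapping enzymes, gave 0 of 21. With the block 2 were higher and 1 lower, 14.3% beside 23.8% of all genes. The chaperone Hsp90aa1 (log2 0.15) and the poly(A)-binding protein Pabpc1 (log2 0.04, another probe set 0.94) were the brightest of the 21. In the CCR4-NOT complex, which shortens the tails of silenced mRNAs, 1 of 10 rose and none fell, 10% beside 12.6% of all genes. The gene that rose was Cnot10, at 402, 463 and 403 in the control and 633, 639 and 619.5 in the shRNA cells (log2 0.57, SE 0.15, limma adjusted p = 0.0292). Its call was lost without control replicate 1 (limma adjusted p = 0.0921), control replicate 3 (0.0648) or shRNA replicates 1 (0.0829), 2 (0.125) or 3 (0.0718), and with median centring (0.51, limma adjusted p = 0.0903) or without the eBayes trend (0.057). A list of genes that tail, degrade or otherwise regulate let-7 and other small RNAs gave 0 of 8. With the block 1 was higher, Xrn2, and 2 were lower, Msi1 and Trim32, which are not tailing or decay enzymes. That is 37.5% called beside 23.8% of all genes, on 8 genes. The exonuclease Xrn2 (log2 0.43, limma adjusted p = 0.116) and the terminal uridylyltransferase Tut4 (log2 -0.01, another probe set 0.72) were the brightest.

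Textbook targets of let-7 moved in both directions: of 15 tested, 1 rose and 3 fell, with a median of -0.18, and with the block 1 rose and 7 fell. That is 26.7% called beside 12.6% of all genes, and 53.3% beside 23.8% with the block, on 15 genes. Igf2bp3, an mRNA-binding protein of fetal tissues, gave 605, 592 and 831 in the control and 423, 384 and 365 in the shRNA cells (log2 -0.77, SE 0.18, limma adjusted p = 0.0176). Hmga2, an architectural chromatin protein, gave 1689, 564 and 1082 against 507, 435 and 403 (log2 -1.17, SE 0.32, limma adjusted p = 0.0404), and its other probe sets gave -1.95 to -2.16. Igf2bp1 gave 2339, 3017 and 2256 against 1473, 1984 and 1279.5 (log2 -0.69, SE 0.19, limma adjusted p = 0.0416). The groups did not overlap for any of these, as in the 16.7% of all genes whose shRNA arrays were all the lower. These genes were named because they were called, so the lack of overlap is no separate support. The spread of Hmga2 in the control was wide. The cell cycle factor E2f2 rose, from 44.7 ± 7.15 to 79.8 ± 5.04 (log2 0.75, SE 0.21, limma adjusted p = 0.0407).

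Igf2bp3 kept its call without each array in turn, in 4 of those 6 fits through another probe set, and lost it without cross-hybridising probe sets (-0.54, limma adjusted p = 0.0587). Hmga2 lost it without control replicate 1 (-0.80, limma adjusted p = 0.103), control replicate 3 (0.0856) and shRNA replicates 1 (0.0726), 2 (0.113) and 3 (0.0996). Igf2bp1 lost it without control replicates 1 (0.0699) and 2 (0.106) and shRNA replicates 1 (0.127) and 3 (0.128). E2f2 lost it without control replicates 1 (0.105) and 2 (0.0874) and shRNA replicates 1 (0.0814), 2 (0.148) and 3 (0.107). Other settings also ended calls. Igf2bp1 lost its call with array weights (-0.50, limma adjusted p = 0.105), without the eBayes trend (0.0798), without a signal filter (0.0697), with median centring (0.0574) and with every probe set as a feature (0.0508). Hmga2 lost its call without a signal filter (limma adjusted p = 0.0722) or the eBayes trend (0.0681), and E2f2 without a signal filter (0.0745).

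Among genes listed as miR-290 and miR-302 targets, 2 of 10 fell and none rose, with a median of -0.10, and with the block 1 rose and 3 fell. The shares called were 20% beside 12.6% of all genes, and 40% beside 23.8% with the block. Tgfbr2, a receptor of transforming growth factor beta, gave 136, 62.5 and 108 in the control and 42.1, 34.7 and 28.6 in the shRNA cells (log2 -1.32, SE 0.29, limma adjusted p = 0.0135), and kept its call in each fit without 1 array. The Hippo kinase Lats2 gave 102, 87.1 and 124 against a mean of 57.9 ± 4.40 (SD, n = 3; log2 -0.77, SE 0.21, limma adjusted p = 0.0364). Its call was lost without control replicates 1 (limma adjusted p = 0.0855) and 3 (0.113) and shRNA replicates 1 (0.0781), 2 (0.146) and 3 (0.0742), and without a signal filter (0.0651). Of 5 mRNAs listed as Trim71 targets none was called, beside 12.6% of all genes. With the block 2 of these targets rose and 1 fell, 60% beside 23.8% of all genes, on only 5 genes. The brightest were Egr1, an immediate early transcription factor (1214 ± 373 and 1459 ± 249), and Cdkn1a, a cyclin-dependent kinase inhibitor (778 ± 326 and 472 ± 141, log2 -0.65, limma adjusted p = 0.260), which is also among the miR-290 and miR-302 targets.

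Transcripts listed as hosts of microRNAs gave 2 of 13 lower and none higher, with a median of -0.22, and 5 lower with the block. The shares lower were 15.4% beside 8.16% of all genes, and 38.5% beside 13.8% with the block. Rian, a long noncoding RNA whose span holds Mir341, Mir370 and Mir1188, gave 802, 1457 and 1254 in the control and 338, 582 and 695 in the shRNA cells (log2 -1.13, SE 0.29, limma adjusted p = 0.0274). Its other probe sets ran from -0.92 to 0.01. Ctdsp1, a phosphatase gene whose span holds Mir26b, gave 341, 385 and 328 against 183, 268 and 175 (log2 -0.75, SE 0.20, limma adjusted p = 0.0318). Rian lost its call without control replicates 2 (limma adjusted p = 0.0892) and 3 (0.0655) and shRNA replicates 1 (0.0812) and 2 (0.0577), and Ctdsp1 without control replicates 1 (0.0755) and 2 (0.086) and shRNA replicates 1 (0.106) and 3 (0.101). Rian also lost it with the mean of probe sets (-0.63, limma adjusted p = 0.0885), without the eBayes trend (0.0512) and without a signal filter (0.0509). Ctdsp1 also lost it with array weights (-0.56, limma adjusted p = 0.0887), with quantile normalization (0.0503) and, at the threshold, without the eBayes trend (0.05001). Hairpins were placed in a gene by its span without regard to strand, so a listed gene need not carry them in its transcript. These are levels of the listed transcripts, and the arrays measured no mature microRNA.

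**Figure D4:**
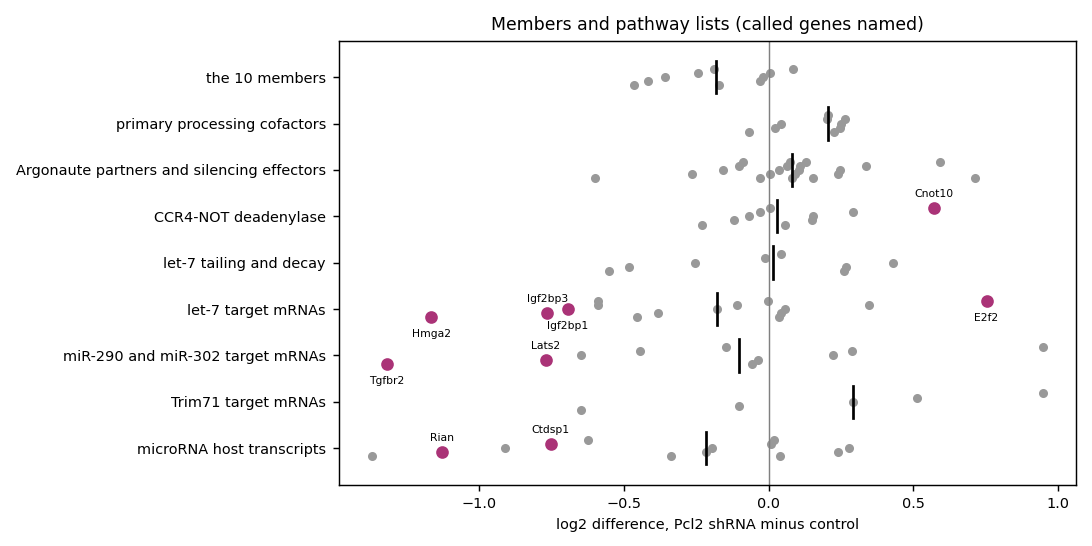
Log2 difference (Pcl2 shRNA minus control) of each tested gene of the 10 members and of 8 pathway lists, 1 point a gene, with the median of each list as a black bar; larger purple points with names are the genes called by limma at an adjusted p below 0.05. The 10 members lie between -0.47 and 0.08 with none called, and the called genes of the lists lie between -1.32 and 0.75.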

How the data were processed

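Each probe set has a linear intensity, deposited by the authors, and the submitters' processing notes name MAS5; no source used here gives further settings or a genome build. Every one of the 6 arrays had a mean of 150.001 once the outer 2% at either end were dropped, and 57.2% to 61.9% of probe sets per array exceeded background, taken as 20.3, the highest signal of 27 bacterial control probe sets without a spike. The number of arrays limits the precision.

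Signals were transformed to log2(signal + 7), 7 being the 20th percentile. Of 45101 probe sets 34945 named 1 gene, 932 several and 9160 none, and 64 were controls. Of the first, 34741 matched a RefSeq gene ID and carry its current symbol. Those at or above the 40th percentile of mean log2 value (23186, a signal of about 20.2) entered lmFit and eBayes with trend, from limma 3.58.1 (R 4.3.3). The members and lists were chosen with earlier results of these data known. Named genes were the 10 members, Mtf2, and per list the called genes, up to 3 in each direction, or else the 2 brightest; Ago4 and Lin28b were added after their values were seen.

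The labels number the replicates. Deviations from the group means correlated at 0.25 to 0.40 for the same number and at -0.38 to -0.00 for different numbers. Deviations within a group sum to 0, so the values for different numbers depend on those for the same number. On these data alone, the numbers were used as pairs in the fits with the replicate block. The main test and the permutation were unpaired. The unpaired fit was tested on simulated data, where it recovered 43 of 100 changes of log2 1 and 83 of 100 of log2 2. Of 131 genes it called there, 5 were false. Changes as small as those of the members were not simulated.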

Additional observations from a re-analysis of the deposited data

How the results depend on the processing

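In 14 alternatives of scaling, pseudocount, filter, probe set choice and fit, and in 6 fits without 1 array, no member passed the threshold except Ago1 with the replicate block (-0.47, 1 member called). With all arrays kept the sign turned for 4 members: Ago2 gave 0.15 without cross-hybridising probe sets, Drosha 0.043 with the mean of probe sets, Tarbp2 0.00083 with quantile normalization, 0.12 with the mean of probe sets and 0.083 with array weights, and Xpo5 -0.054 with median centring, -0.077 with the mean of probe sets and -0.16 without cross-hybridising probe sets. Only the choice of probe set changed between the settings for Ago2 and the last of Xpo5. The mean of probe sets averages all tested probe sets of a gene, and median centring moved every member by the same amount. For Tarbp2 with quantile normalization and array weights the cause was not tested. The signs of Dgcr8, Dicer1, Ago1, Trim71 and Lin28a held in all 20 fits, with Dicer1 between -0.44 and -0.061. Over the fits without 1 array the differences ran from -0.30 to 0.29 for Drosha, -0.19 to 0.19 for Tarbp2, -0.047 to 0.11 for Xpo5, -0.084 to 0.18 for Ago3, -0.33 to -0.09 for Ago2, -0.30 to -0.06 for Dicer1, -0.25 to -0.10 for Trim71, -0.49 to -0.22 for Lin28a, -0.59 to -0.28 for Dgcr8 and -0.84 to -0.63 for Mtf2. The -0.28 of Dgcr8 came without control replicate 1, where another of its probe sets was the brightest. The count of all genes called was 3113 with the replicate block and 979 to 1598 without 1 array, the lowest without shRNA replicate 2. Other pathway genes called numbered 4 without a signal filter, 25 with the replicate block and 3 to 7 without 1 array, against 9. Signal over background limits Ago3 and the dim probe sets of Dgcr8 and Tarbp2.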
